A study of Homo sapiens with 3 samples.

Results

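Immediate early genes and the genes of the proteins that feed back on the mitogen-activated protein kinase (MAPK) cascade were examined in TK-10, a cell line from a human renal carcinoma. The 47 genes were listed by function. A probe was assigned to a gene when its RefSeq accession belonged to that gene. Of the 47 genes, 46 had a probe, with 57 probes among the 31087 that could be named for 22430 genes in all. RHOB had none. The data came from 3 single-color Agilent arrays, with 1 array per condition and no replicates. The control cells received 0.1% DMSO, the solvent. The next culture, per its label, received cordyceps, a preparation of a fungus that makes the adenosine analog cordycepin, at 750 μg/ml, and the last received 10 μM sunitinib, an inhibitor of receptor tyrosine kinases. All 3 cultures were treated for 48 h and, per the labels, were kept in medium with fetal bovine serum, nicotinamide, troglitazone and zinc sulfate, so that every comparison was made in the presence of these agents. The study's methods name purified cordycepin at another dose, and this difference between label and methods could not be resolved. The array is called the cordyceps array, as it is labeled. The methods do not describe the sunitinib culture.

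Immediate early genes are transcribed within minutes of a growth factor or stress signal, without new protein synthesis, and most encode transcription factors. Activated ERK phosphorylates ternary complex factors, which bind with SRF at serum response elements and switch on FOS, EGR1 and related genes. The same cascade induces its own inhibitors. These are the dual-specificity phosphatases (DUSPs), which remove phosphate from MAP kinases, and the Sprouty and SPRED proteins, which block signaling between receptor and RAF. After a single stimulus the early transcripts last for an hour or so, whereas levels in cells kept in serum for days reflect continued signaling. In carcinoma cells the set FOSL1, DUSP6, SPRY2, SPRY4, ETV4 and ETV5 is widely used as a readout of ERK output. TK-10 cells are of renal tubular origin, and sunitinib is used against renal carcinoma.

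The promoters of 3 genes are shown because they carry elements through which early genes are known to be controlled, and because the genes' levels are described further on. A promoter was listed for 34 of the 46 genes in the RefSeq table of GRCh38.p14, and the 250 bases before the gene start are printed, 5′ to 3′ on the gene's strand. EGR1 (chr5:138465229-138465478, + strand) has 2 serum response elements in capitals, which start at -105 and -83 relative to the gene start. DUSP1 (chr5:172771196-172771445, - strand) has a cyclic AMP response element in capitals, which starts at -125. KLF2 (chr19:16324576-16324825, + strand) has a motif of EGR factors in capitals, which starts at -248.
EGR1: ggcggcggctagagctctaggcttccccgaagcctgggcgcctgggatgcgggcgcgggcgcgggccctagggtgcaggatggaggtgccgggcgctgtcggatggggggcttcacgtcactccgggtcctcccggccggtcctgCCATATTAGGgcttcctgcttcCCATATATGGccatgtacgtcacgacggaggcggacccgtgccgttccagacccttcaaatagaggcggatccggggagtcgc
DUSP1: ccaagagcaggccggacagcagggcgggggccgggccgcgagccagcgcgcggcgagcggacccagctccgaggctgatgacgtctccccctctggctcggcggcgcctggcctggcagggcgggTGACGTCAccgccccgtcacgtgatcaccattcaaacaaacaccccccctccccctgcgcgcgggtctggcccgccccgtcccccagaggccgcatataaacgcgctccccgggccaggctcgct
KLF2: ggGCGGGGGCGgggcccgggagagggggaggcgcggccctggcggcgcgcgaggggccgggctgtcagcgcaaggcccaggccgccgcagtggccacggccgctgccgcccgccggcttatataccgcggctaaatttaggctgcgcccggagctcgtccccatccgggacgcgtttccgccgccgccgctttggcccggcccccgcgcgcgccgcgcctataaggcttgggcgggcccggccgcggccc
Matches were searched on both strands in the whole window, from 250 bases before to 50 after the gene start. The serum response element (CArG box) was found in 3 of the 34 genes, EGR1, EGR2 and SRF, which is 8.82%, against 1.6% of 27305 genes with a promoter in the table. The cyclic AMP response element TGACGTCA was found in DUSP1, JUND, MAFF and ZFP36L1, or 11.8% against 2.25%. The EGR motif GCGGGGGCG was found in 6 genes, DUSP2, KLF2, KLF6, SPRY1, SPRY2 and SRF (17.6% against 6.14%). Its other form GCGTGGGCG was found in 0 (against 0.96%). The AP-1 motif TGANTCA was found in FOSL2 and SPRED2 (5.88% against 9.37%), and the ETS motif ACCGGAAG in IER2 (2.94% against 2.62%). A match describes the letters only, and no binding was measured.

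Levels are given as log2 of the background-corrected intensity over the array's own 75th percentile, so that a level of 0 lies at that percentile. That percentile was an intensity of 165 on the control array, 138 on the cordyceps array and 78.3 on the sunitinib array. The arrays had 26486, 21984 and 22268 of 58201 probes well above background by Agilent's criterion, which is 45.5%, 37.8% and 38.3%. The lowest intensity so called was 18.2, 30.2 and 18.3. No spot was saturated, and all 3 arrays lay on 1 slide with 1 scan time. Probes of different genes bind with different strength, so levels were compared between arrays and never between genes. Of 12 renal epithelial and carcinoma markers with a probe, 10 were well above background on every array, and CDH1 and CA9 were not. Their levels were not all alike. CDH16 had log2 ratios of -2.23 with cordyceps and -0.49 with sunitinib, CDH6 of -2.38 and 0.04, and PAX2 of -0.62 and 0.77. Only KRT18 (0.13) and EPCAM (0.12) were higher with cordyceps, and with sunitinib the markers went both ways. Of 6 fibroblast markers, 4 were well above background on the control and cordyceps arrays and 3 on the sunitinib array, with a summed intensity of 7116, 1879 and 971. These sums are intensities before scaling between arrays. After scaling, COL1A1 had log2 ratios of -2.05 with cordyceps and -2.71 with sunitinib, DCN of -1.80 and -3.43, and PDGFRB of -0.18 and 0.66, while COL1A2 and COL3A1 were not well above background. Of 5 leukocyte markers with a probe, 3, 1 and 2 were above background on the control, cordyceps and sunitinib arrays (summed intensity 805, 418 and 199), and CD3E was on none. CD14 had log2 ratios of -0.63 and -1.50, whereas PTPRC was higher with sunitinib by 2.39 and not well above background with cordyceps. ITGAM was well above background on the control array only, with log2 ratios of at most -1.01 and -0.91. Of 5 endothelial markers, 2, 2 and 1 were (218, 175 and 88.2), and PECAM1, KDR and TEK were on none. CDH5 had log2 ratios of -0.18 and 0.23. VWF had -0.14 with cordyceps and at most -1.33 with sunitinib, where it was not well above background. The part of these markers in the members' ratios was not tested. All 3 cultures were of the TK-10 line, so the markers are not read here as numbers of other cell types. In bulk RNA, a change in every cell and a change in a part of the cells cannot be told apart.

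The probe was well above background on all 3 arrays for 30 of the 46 genes, on 2 arrays for 6 and on 1 array for NR4A2, a nuclear receptor. The remaining 9 genes were not well above background on any array. These were FOS, EGR2, EGR3, NR4A1, NR4A3, SRF, DUSP2, DUSP7 and ARC. FOS, the partner of JUN in AP-1, had intensities of 4.15, 6.76 and 6.73 on the control, cordyceps and sunitinib arrays, each below the lowest intensity called well above background.

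**Figure D1:**
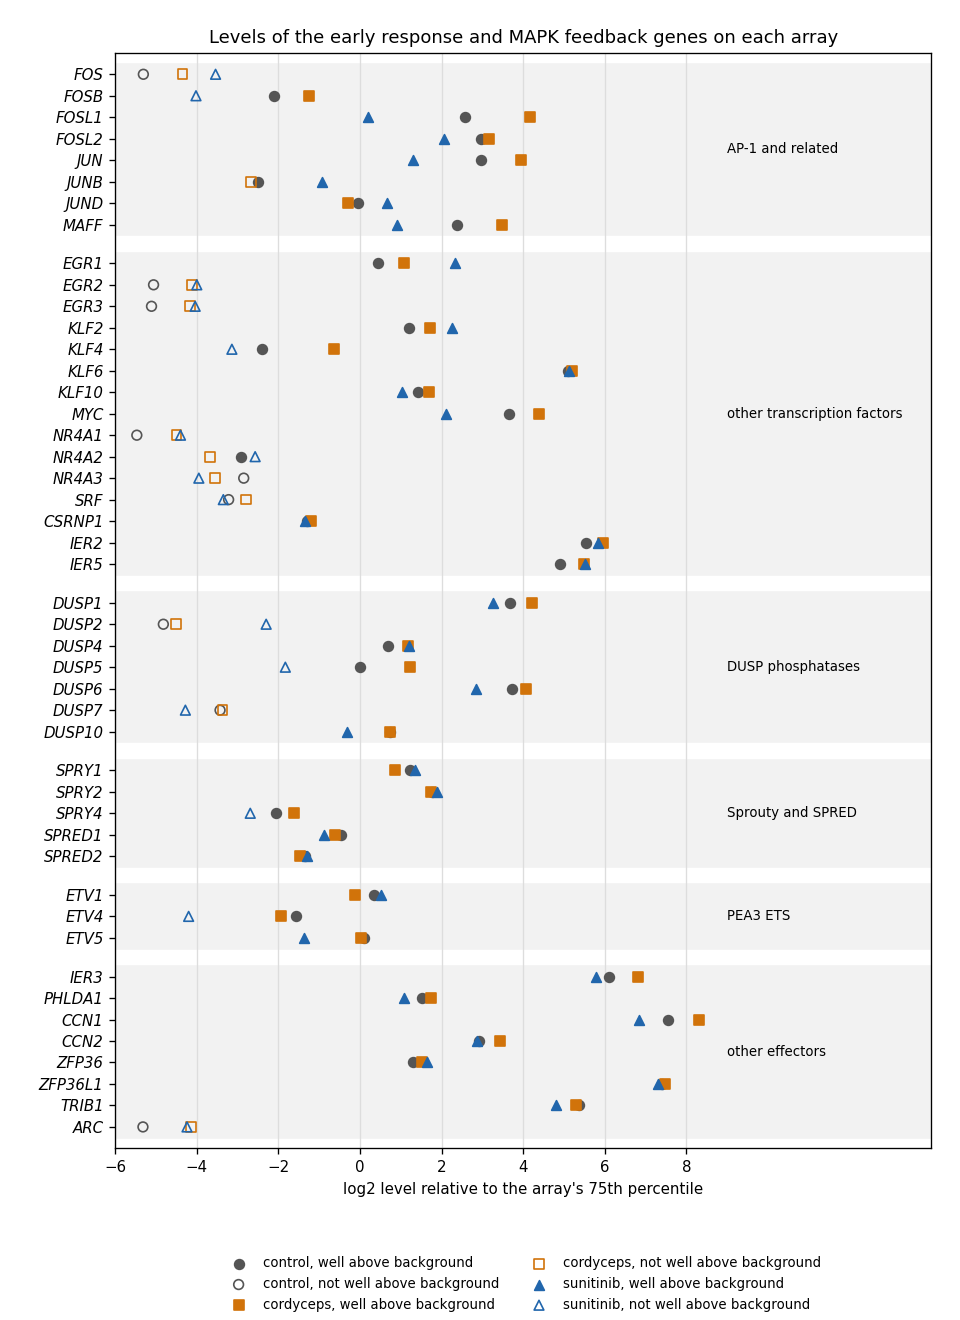
Level of each of the 46 genes on the control (circles), cordyceps (squares) and sunitinib (triangles) arrays, 1 array each, as log2 intensity relative to the array's 75th percentile. Open symbols are not well above background. FOSL1, JUN, MAFF and MYC had their highest level on the cordyceps array and their lowest on the sunitinib array, whereas EGR1 was highest on the sunitinib array.

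On the cordyceps array the genes lay more often above the control than below it. On the sunitinib array 13 lay above and 21 below, where 6736 and 7247 of all compared genes did. A gene was compared when either array had its probe well above background, which held for 37 genes in each comparison. On the cordyceps array 4 of the 37 were more than 2-fold higher, namely KLF4, FOSL1, DUSP5 and MAFF, where 2.94% of all 14773 compared genes were (percent of genes higher). None was more than 2-fold lower, where 2.73% of all compared genes were. On the sunitinib array 3 of the 37, EGR1, JUNB and KLF2, were more than 2-fold higher, against 6.41% of 14894 genes. FOSL1, DUSP5, JUN, MYC, MAFF, ETV5 and DUSP10 were more than 2-fold lower, which is 7 of the 37, against 6.49%. The median log2 ratio was 0.26 for cordyceps over control, with a range of -0.47 to 1.77, and -0.04 for sunitinib over control, with a range of -2.37 to 1.87. The median over all compared genes was 0.00 in both. Both ratios share the control array, so an error in that array would move them together.

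With 1 array per condition no test was possible, and the difference between conditions has no replicate check. Each ratio was instead set beside the technical error that the scanner software gives for each spot. A ratio past the 95% limit, which is 1.96 times the combined error and about 0.40 on the log2 scale for a bright gene, exceeds the error of measuring the spots, but this error does not include the difference between cultures. For cordyceps, 16 of the 35 genes measured on both arrays were higher by more than this limit, against 15.0% of 13030 genes, and ETV1 was the 1 gene lower, against 13.3%. For sunitinib, 6 of 31 were higher, against 22.6% of 12992 genes, and 12 were lower, against 21.8%.

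**Figure D2:**
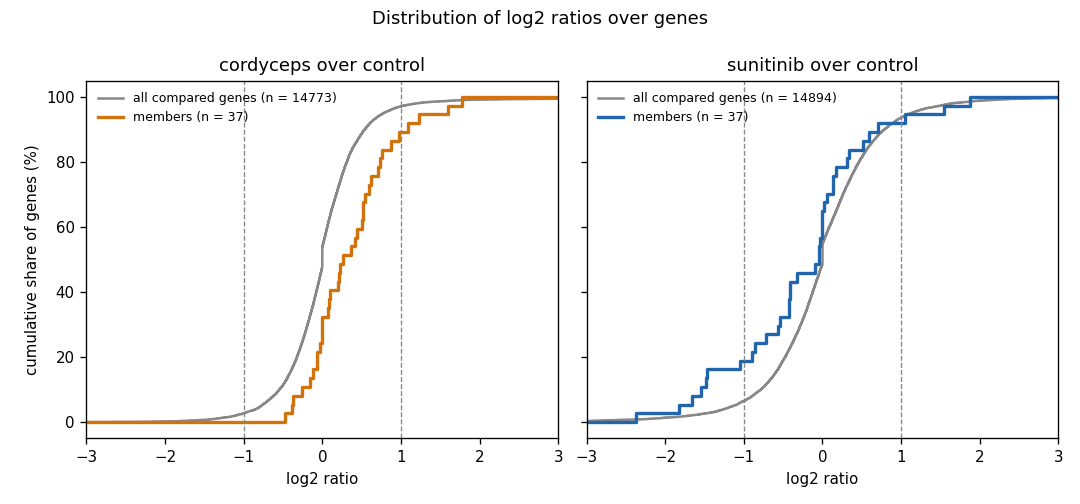
Cumulative share of genes (vertical axis) at or below a log2 ratio (horizontal axis) for the compared members and for all compared genes, in each comparison. For cordyceps the members' curve lies to the right of all genes (median 0.26 against 0.00). For sunitinib 7 of 37 genes lay more than 2-fold lower, against 6.49% of all compared genes. On the higher side 3 of 37 (8.11%) passed 2-fold, close to the 6.41% of all compared genes.

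The AP-1 proteins are dimers of FOS and JUN family members that bind the promoters of growth, migration and protease genes. FOSL1 (FRA-1), a FOS family member that accumulates when ERK stays active, stood farthest apart on the sunitinib array. Its log2 level was 2.57 on the control array, 4.17 on the cordyceps array and 0.20 on the sunitinib array, from intensities of 977, 2477 and 89.7. FOSL1 was thus highest with cordyceps and lowest with sunitinib. The log2 ratio was 1.60 for cordyceps (3.03-fold higher, error limit 0.40) and -2.37 for sunitinib (5.18-fold lower, error limit 0.43). JUN, the main transactivating partner, had log2 levels of 2.97, 3.95 and 1.31 in the same order of arrays. JUN had the same order of arrays as FOSL1, with a log2 ratio of 0.98 for cordyceps, just inside the 2-fold limit, and -1.66 for sunitinib. MAFF, a small MAF protein that lacks a transactivation domain, had log2 levels of 2.38, 3.47 and 0.91. MAFF was also highest with cordyceps (log2 ratio 1.09) and lowest with sunitinib (-1.48).

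The members of the JUN family differed in their order of arrays. JUNB, which can restrain JUN, had log2 levels of -2.49 on the control array, -2.67 on the cordyceps array, where it was not well above background, and -0.94 on the sunitinib array. JUNB therefore had no ratio for cordyceps and a log2 ratio of 1.55 for sunitinib (2.93-fold higher, error limit 0.68). JUND, the family member least dependent on stimulation, had log2 levels of -0.04, -0.29 and 0.66, with log2 ratios of -0.26 and 0.70. Both were highest on the sunitinib array, where JUN was lowest, although without scaling between arrays the JUND ratio turned to -0.37. FOSL2 (FRA-2) had log2 ratios of 0.20 for cordyceps and -0.89 for sunitinib, the value nearest to the 2-fold limit from inside on the lower side. FOSB was higher with cordyceps by 0.87 and was not well above background with sunitinib. Of the 7 compared AP-1 genes, 2 were more than 2-fold higher and 0 lower with cordyceps (median log2 ratio 0.87). With sunitinib 1 was higher and 3 were lower (median -0.89). Over all compared genes the shares higher and lower were 2.94% and 2.73% with cordyceps, and 6.41% and 6.49% with sunitinib. In groups this small, a few calls describe those genes and not the group.

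**Figure D3:**
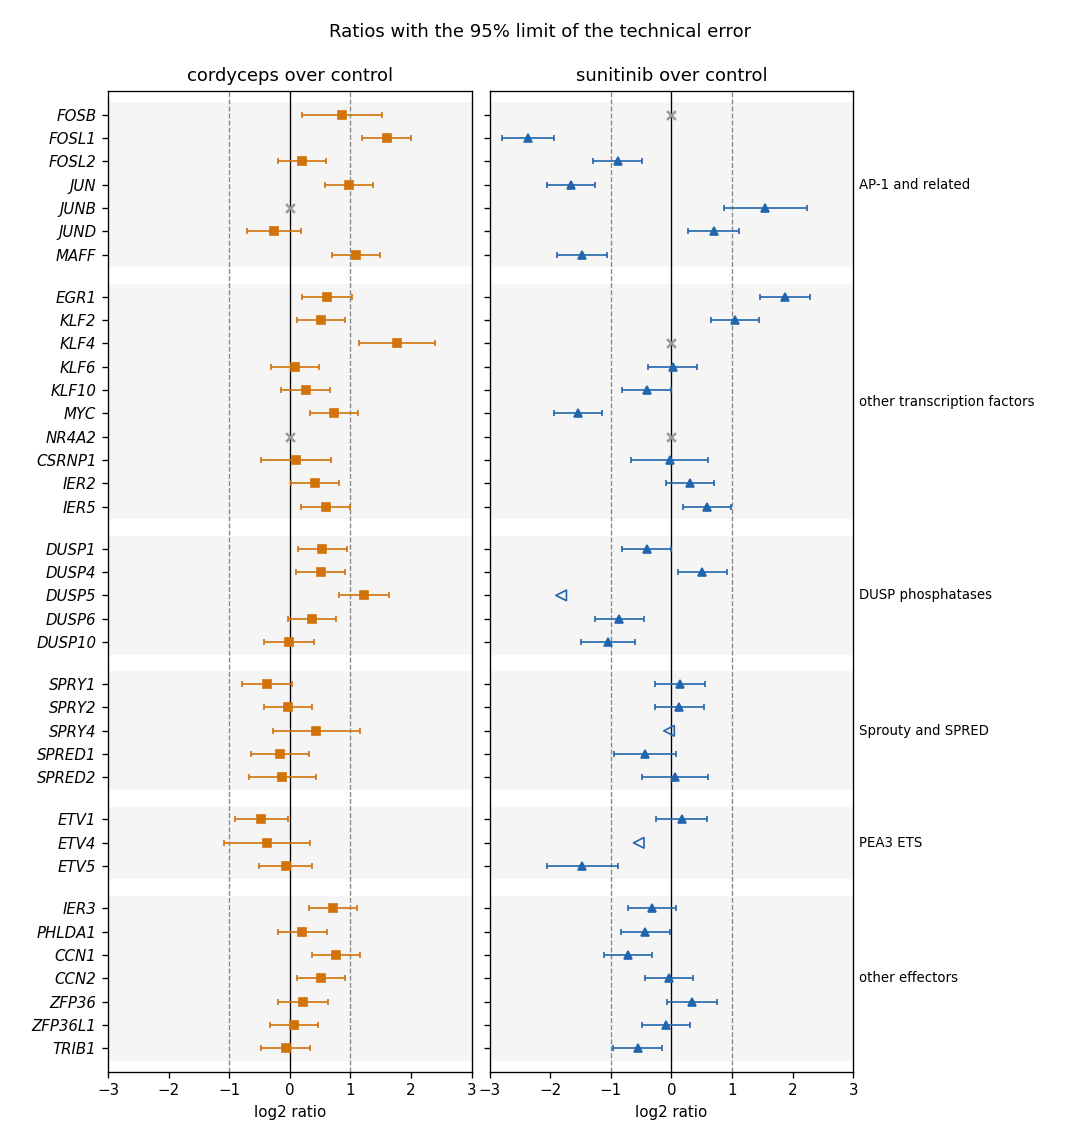
Log2 ratio of each compared gene for cordyceps over control (left) and sunitinib over control (right), with bars for the 95% limit of the technical error of 1 array against 1 array. Dashed lines mark 2-fold, and crosses mark genes with no ratio. Open triangles mark bounds where the sunitinib array was not well above background, except for DUSP5, whose ratio is from a dim spot. FOSL1, JUN, MAFF and MYC lie to the right on the left side and to the left on the right side of the plot, while EGR1 lies to the right in both.

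The other early transcription factors comprise zinc finger proteins, nuclear receptors and MYC. EGR1, whose promoter holds the serum response elements printed above, is among the genes most directly induced by ERK. The EGR1 log2 level was 0.45 on the control array, 1.07 on the cordyceps array and 2.33 on the sunitinib array. EGR1 was therefore lowest in control cells and highest with sunitinib, opposite to FOSL1 on that array. The log2 ratio of EGR1 was 0.62 for cordyceps (1.54-fold) and 1.87 for sunitinib (3.66-fold higher), both past the error limit of 0.41. KLF2, a Krüppel-like factor known from endothelial cells, had log2 levels of 1.20, 1.72 and 2.25. KLF2 had the same order of arrays as EGR1, with log2 ratios of 0.52 and 1.05. The KLF2 value for sunitinib lay just past 2-fold and was -0.03 without scaling between arrays. KLF4, a factor of epithelial differentiation, had log2 levels of -2.41, -0.64 and -3.14 and was not well above background on the sunitinib array. KLF4 had the highest ratio with cordyceps, 1.77 on the log2 scale (3.42-fold higher, error limit 0.63), and no ratio with sunitinib.

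MYC, a driver of growth and ribosome synthesis whose transcript is short-lived, had log2 levels of 3.65 on the control array, 4.38 on the cordyceps array and 2.11 on the sunitinib array. MYC thus had the order of FOSL1, with log2 ratios of 0.73 for cordyceps (1.66-fold higher) and -1.54 for sunitinib (2.91-fold lower). The MYC probe was printed in 10 spots on each array, so its technical spread was seen directly. The mean intensity of MYC was 2067 ± 43.0 (SD, 10 spots) on the control array, 2867 ± 78.7 on the cordyceps array and 337 ± 21.9 on the sunitinib array. These intensities are before scaling between arrays. On the scaled log2 levels the MYC spots had an SD of 0.03, 0.039 and 0.093 around means of 3.65, 4.38 and 2.11. Spots on 1 array share their RNA, so this spread is technical only. KLF6, a zinc finger factor of growth arrest, had log2 levels of 5.10, 5.19 and 5.12, which differed by less than the error limit of 0.40. IER5, a regulator of heat shock factor activity, was higher on both treated arrays, by 0.59 in each case, although its sunitinib ratio was -0.48 without scaling between arrays. IER2, a nuclear early response protein, was higher by 0.42 with cordyceps and by 0.31 with sunitinib, the latter inside the error limit and -0.76 without scaling. KLF10, which is induced by TGF-beta, had log2 ratios of 0.26 and -0.41, and CSRNP1 of 0.10 and -0.03, all inside their error limits. Of the 10 compared genes of this group, 1 was more than 2-fold higher with cordyceps, against 2.94% of all compared genes (median log2 ratio 0.47). With sunitinib 2 were higher and 1 was lower, against 6.41% and 6.49% (median 0.01, and -0.02 with median scaling).

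The dual-specificity phosphatases inactivate MAP kinases and differ in their preferred kinase and compartment. DUSP5, a nuclear phosphatase specific for ERK, had log2 levels of -0.01 on the control array, 1.22 on the cordyceps array and -1.83 on the sunitinib array, where it was not well above background. DUSP5 was 2.34-fold higher with cordyceps (log2 ratio 1.23, error limit 0.41). With sunitinib it was 3.53-fold lower (log2 ratio -1.82, error limit 0.75), a value from a dim spot that was -0.60 with normexp. The sunitinib ratio of DUSP5 is not a bound. It uses the probe's own intensity on that array, which lay above the lowest intensity called well above background there. DUSP6, a cytoplasmic ERK phosphatase and a common readout of ERK activity, had log2 levels of 3.72, 4.08 and 2.85. DUSP6 was lowest with sunitinib, with a log2 ratio of -0.86 (1.82-fold lower, error limit 0.40), and its ratio of 0.37 with cordyceps did not pass the error limit. DUSP4, a nuclear phosphatase induced by ERK, differed from both, with log2 levels of 0.68, 1.18 and 1.19. DUSP4 was higher on both treated arrays by 0.51 on the log2 scale, although its sunitinib ratio was -0.56 without scaling between arrays. DUSP10, which prefers JNK and p38 over ERK, had log2 levels of 0.74, 0.73 and -0.31. DUSP10 had a log2 ratio of -0.01 with cordyceps, inside the error limit of 0.41, and was 2.07-fold lower with sunitinib (-1.05).

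DUSP1, whose promoter holds the cyclic AMP response element printed above, encodes a nuclear phosphatase of ERK, JNK and p38 and is induced by stress as well as growth factors. Its log2 levels were 3.68, 4.22 and 3.27. DUSP1 was thus highest with cordyceps (log2 ratio 0.54, 1.45-fold higher) and lowest with sunitinib (-0.41, 1.33-fold lower), the latter only just past the error limit of 0.40. The DUSP1 probe was printed in 10 spots, with intensities of 2119 ± 70.0 (SD, 10 spots) on the control array, 2574 ± 145 on the cordyceps array and 755 ± 20.0 on the sunitinib array. On the log2 scale the DUSP1 spots had an SD of 0.049, 0.083 and 0.039, well under either ratio. Of the 5 compared phosphatases, DUSP5 was more than 2-fold higher with cordyceps, where 2.94% of all compared genes were (median log2 ratio 0.51). DUSP5 and DUSP10 were more than 2-fold lower with sunitinib, where 6.49% of all compared genes were (median -0.86).

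The Sprouty and SPRED inhibitors stayed near the control on both treated arrays. SPRY2, the Sprouty protein most studied in epithelial cells, had log2 levels of 1.77 on the control array, 1.74 on the cordyceps array and 1.89 on the sunitinib array. All differences of SPRY2 lay inside the error limit of 0.40. SPRY4, which is closely tied to ERK output, had log2 levels of -2.06, -1.61 and -2.69 and was not well above background on the sunitinib array. SPRY4 had a log2 ratio of 0.44 with cordyceps, inside its error limit of 0.72. With sunitinib this probe gave only a bound, 1.03-fold lower (log2 ratio -0.04), inside an error limit of 1.21. A second, dim SPRY4 probe went the other way with sunitinib. SPRED1, which recruits neurofibromin to RAS, had log2 levels of -0.46, -0.62 and -0.89. Its log2 ratios of -0.16 and -0.43 were inside the error limits of 0.48 and 0.51. SPRY1 and SPRED2 also stayed inside their limits, with log2 ratios of -0.37 and -0.12 for cordyceps and 0.14 and 0.06 for sunitinib. The group thus had 0 of 5 genes past 2-fold in either comparison, with median log2 ratios of -0.12 and 0.06. The sign of both medians turned with median scaling, to 0.10 and -0.27. Without scaling between arrays 3 of the 5 were more than 2-fold lower with sunitinib (median -1.02), where 53.6% of all compared genes were. A ratio inside the error limit does not show that a level was the same.

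The PEA3 factors ETV1, ETV4 and ETV5 are ETS proteins that ERK activates and induces. ETV5 had log2 levels of 0.10 on the control array, 0.02 on the cordyceps array and -1.37 on the sunitinib array. ETV5 was thus lower with sunitinib alone, by a log2 ratio of -1.47 (2.76-fold lower, error limit 0.58), against -0.07 with cordyceps. ETV4 had log2 levels of -1.56, -1.93 and -4.20 and was not well above background on the sunitinib array. ETV4 had a log2 ratio of -0.38 with cordyceps, inside its error limit of 0.71. With sunitinib ETV4 had only a bound, 1.45-fold lower (log2 ratio -0.54), which lay inside an error limit of 2.86. With normexp ETV4 had no ratio there. ETV1 had log2 levels of 0.35, -0.12 and 0.52 and was the lowest of all compared members with cordyceps, at -0.47 (error limit 0.44). ETV1 was read by 4 probes, which did not give 1 answer. With cordyceps the ETV1 differences in log2 level were -0.47, -0.13, -1.42 and -0.93, the last 2 with the cordyceps array not well above background. With sunitinib they were 0.17, -0.73, -0.04 and -1.18, so the brightest ETV1 probe was the only one on the higher side. The sunitinib value of ETV1 therefore depends on the probe, while all 4 were lower with cordyceps. With cordyceps 0 of the 3 PEA3 genes passed 2-fold (median log2 ratio -0.38). With sunitinib ETV5 was the 1 gene lower, where 6.49% of all compared genes were. The median of -0.54 is the ETV4 bound. With normexp the median was 0.00 and 0 of the 3 were more than 2-fold lower, against 5.62% of all compared genes.

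The remaining members are early response genes that encode matricellular proteins, regulators of RNA decay and of survival. CCN1 (CYR61), a secreted matricellular protein, had log2 levels of 7.55 on the control array, 8.31 on the cordyceps array and 6.83 on the sunitinib array. CCN1 had the order of FOSL1 with smaller differences, at log2 ratios of 0.76 (1.69-fold higher) and -0.72 (1.65-fold lower). CCN2 (CTGF), its relative and a target of YAP and TGF-beta, had log2 levels of 2.92, 3.44 and 2.87. CCN2 was higher with cordyceps by 0.52 and had a log2 ratio of -0.04 with sunitinib, inside the error limit. IER3, a survival protein that is also an NF-κB target, had log2 levels of 6.10, 6.81 and 5.78. IER3 was higher with cordyceps by 0.71, and its second probe gave 0.72, while the sunitinib values of -0.32 and -0.17 were inside the error limit. PHLDA1, a pleckstrin homology protein induced by ERK, had log2 levels of 1.52, 1.73 and 1.09, with log2 ratios of 0.21 and -0.43. ZFP36 (tristetraprolin), which directs the decay of cytokine and early gene transcripts, had log2 levels of 1.29, 1.51 and 1.63, with both log2 ratios, 0.22 and 0.34, inside the error limit and the latter -0.73 without scaling. ZFP36L1 had log2 ratios of 0.07 and -0.09, and TRIB1, a pseudokinase scaffold, of -0.07 and -0.56. None of the 7 compared genes of this group passed 2-fold, with median log2 ratios of 0.22 for cordyceps and -0.32 for sunitinib. Without scaling between arrays the medians were -0.03 and -1.39. In that setting 6 of the 7 were more than 2-fold lower with sunitinib, against 53.6% of all compared genes. With median scaling or normexp 1 of the 7, CCN1, was, against 12.9% and 5.62%.

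Among the members nearest to the 2-fold limit, MAFF at 1.09 lay inside the higher calls with cordyceps and JUN at 0.98 outside. With sunitinib the corresponding values were 1.05 for KLF2 and 0.70 for JUND on the higher side, and -1.05 for DUSP10 and -0.89 for FOSL2 on the lower side. Of the 9 genes with several probes, SPRY1, CSRNP1, SPRY4, KLF6, NR4A2 and NR4A3 also had probes that were not alike. The second SPRY1 probe differed by -0.80 with cordyceps, where it was not well above background, and by 0.19 with sunitinib. The second CSRNP1 probe differed by -0.53 and -0.09 and was not well above background on either treated array. The second SPRY4 probe was dim on every array and differed by 0.90 with cordyceps and 1.91 with sunitinib, against 0.44 and -0.63 for the first. The second probes of KLF6 (-0.15 and -0.70), NR4A2 (0.27 and 1.34) and NR4A3 (0.95 and 1.05) were likewise dim on all arrays. For NR4A2 the first probe differed by -0.76 and 0.34, and for NR4A3 by -0.70 and -1.10, dim on at least the treated arrays. None of the member probes lay in the bright streak of 567 spots on the cordyceps array.

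**Figure D4:**
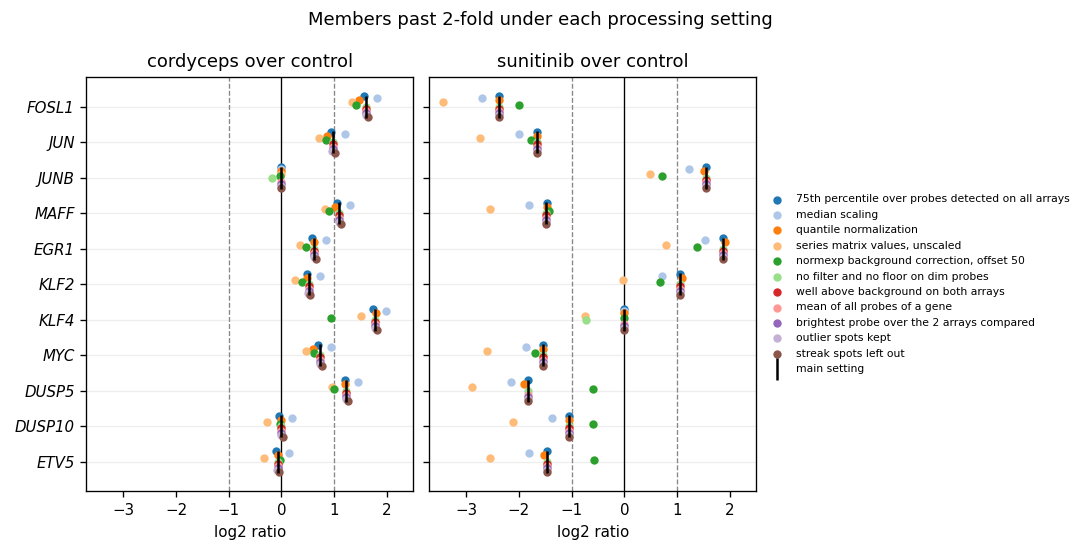
Log2 ratio (horizontal axis) of the genes past 2-fold in either comparison (vertical axis), with 1 colored point per processing alternative and a black bar for the value reported, for cordyceps over control and sunitinib over control, 1 array each. Dashed lines mark 2-fold, and a value of 0 stands where a gene had no ratio. FOSL1 stayed past 2-fold in both comparisons under the 11 alternatives plotted, from 1.34 to 1.82 with cordyceps and from -3.45 to -2.00 with sunitinib, as did JUN, MAFF and MYC with sunitinib.

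Calls were next read against the processing. FOSL1 was past 2-fold under all 11 alternatives that give ratios, in both comparisons, and JUN (-2.73 to -1.65), MAFF (-2.55 to -1.43) and MYC (-2.61 to -1.54) were so with sunitinib. With a normexp background correction KLF4 fell to 0.94 with cordyceps, and DUSP5, DUSP10 and ETV5 were at -0.60, -0.60 and -0.57 with sunitinib. DUSP5 and MAFF with cordyceps fell inside 2-fold with normexp and without scaling between arrays, and JUNB did with sunitinib. KLF2 with sunitinib did so with median scaling, with normexp and without scaling. EGR1 with sunitinib was at 0.80 in the values that were not scaled between arrays, and otherwise past 2-fold. Median scaling moved the median of all compared genes by 0.18 for cordyceps and -0.31 for sunitinib, and leaving the arrays unscaled moved it by -0.24 and -1.05. Relative to that shift the median of the members was 0.30 and 0.24 for cordyceps and -0.06 in both settings for sunitinib.

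Other genes of the pathway were read from lists of related function. The first list held 38 compared components of the MAP kinase cascade, from receptors to ELK factors. With cordyceps 0 were past 2-fold, against 2.94% of all compared genes higher and 2.73% lower. With sunitinib 0 were higher and 2 lower, against 6.41% and 6.49%. The median log2 ratios were 0.02 and 0.04, against 0.00 for all genes, and without scaling the sunitinib median less that of all genes was again 0.04. The counts moved with the scaling. With cordyceps 4 were higher with median scaling (against 4.96% of all compared genes) and 2 with the streak spots left out (against 2.62%). In the unscaled values 1 was lower with cordyceps (against 5.63%). With sunitinib 6 of the 38 were lower with median scaling and 20 without scaling, against 12.9% and 53.6% of all compared genes. With cordyceps EGFR, the epidermal growth factor receptor, was the highest at 0.99 and MAPK11, a p38 kinase, the lowest at -0.91. With sunitinib MAPK3, which encodes ERK1, was the highest at 0.89 (-0.18 without scaling) and MAPK13, another p38 kinase, the lowest at -1.10. The other feedback inhibitors comprised 18 compared genes, with medians of -0.05 and 0.02. None passed 2-fold with cordyceps, where SOCS3, an inhibitor of cytokine receptors, was highest (0.65) and DUSP8 lowest (-0.50). With sunitinib 1 was higher, RGS2, a regulator of G protein signaling (1.45), and 2 were lower, among them TRIB3, a pseudokinase induced by stress (-1.35). Of all compared genes 6.41% were higher and 6.49% lower with sunitinib.

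Secondary targets of ERK, which follow the early factors in time, lay far below the control on the sunitinib array. Of 21 compared, 14 were more than 2-fold lower and 1 higher, against 6.49% and 6.41% of all compared genes. The list was chosen with earlier results of these data known, so these counts describe the listed genes and test nothing. The median log2 ratio was -1.27 against 0.00 for all genes. The count lower was 12 with normexp and 15 without scaling between arrays, against 5.62% and 53.6% of all compared genes. Without scaling the median less that of all genes was -1.29. CXCL8 (interleukin 8) had log2 levels of 4.22 on the control array, 4.46 on the cordyceps array and 1.00 on the sunitinib array. It was the lowest of this list at -3.23, and MMP1, the interstitial collagenase, was the 1 gene higher at 1.01 (-0.06 without scaling). With cordyceps 3 of the 21 were more than 2-fold higher and 0 lower, against 2.94% and 2.73%, with a median of 0.33. UPP1, uridine phosphorylase, was the highest at 2.32 (4.99-fold), with log2 levels of 3.73, 6.05 and 2.63. The targets of SRF, MRTF and YAP, which link actin to transcription, gave medians of -0.24 and -0.08 over 19 genes. With cordyceps 0 were higher and 2 lower, against 2.94% and 2.73% of all compared genes. The ratios ran from AXL, a receptor kinase, at 0.87 to TAGLN (transgelin) at -1.63. With sunitinib 1 was higher, ACTA2 (smooth muscle actin) at 1.32, against 6.41% of all compared genes. The lower genes were 4, against 6.49%, the lowest being CNN1 (calponin) at -3.16.

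**Figure D5:**
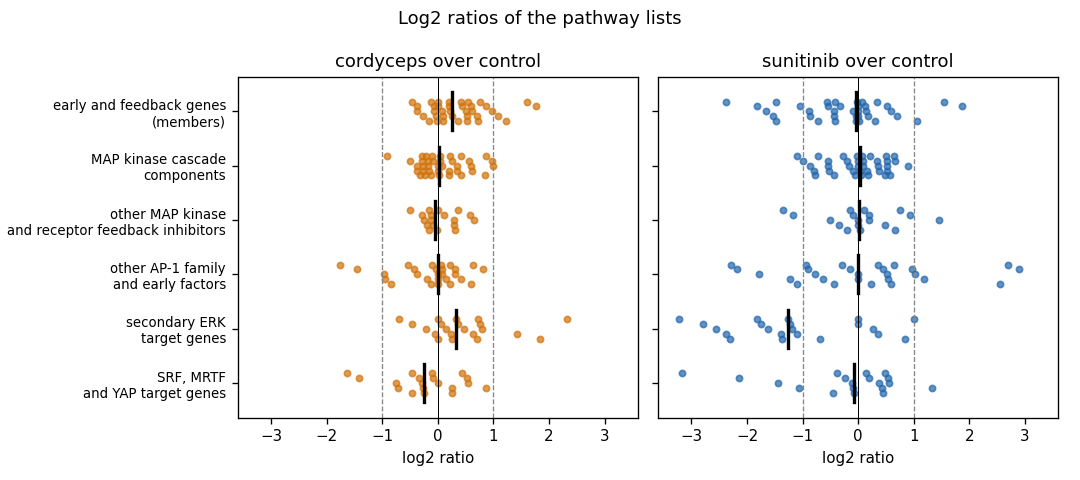
Log2 ratios of the genes of each related list for cordyceps over control and sunitinib over control, 1 point per compared gene, with a bar at the list median. The secondary ERK targets lie to the left with sunitinib (median -1.27, 14 of 21 more than 2-fold lower, against 6.49% of all compared genes). The lists were chosen with earlier results of these data known, so the plot is a description only. The cascade components lie around 0 in both comparisons (medians 0.02 and 0.04).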

How the data were processed

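Total RNA of TK-10 cells had been labeled with Cy3 and hybridized to 1 Agilent array per condition. The authors deposited Feature Extraction 11.5.1.1 output for each array, with intensity on a linear scale after background subtraction, and a table of processed values that equaled this intensity to within 0.01% for 99.87% to 99.92% of probes, with column medians of 14.4 (control), 10.3 (cordyceps) and 8.58 (sunitinib). That table was thus on a linear scale, without centering between arrays. The array design used build hg19. The methods of the study describe a 2-color array, which these files are not, and only their 2-fold limit was taken.

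From the deposited intensity, control spots and outlier spots (103, 121 and 63 on the control, cordyceps and sunitinib arrays) were dropped, repeated spots were averaged per probe, and the log2 intensity less the array's 75th percentile was computed. Accessions were matched to symbols in a GRCh38.p14 RefSeq table, used for names and promoters only, since the builds differ (24739 of 25265 probes with an NM accession). Of a gene's probes the one with the highest mean log2 level over the 3 arrays was used. A dim side was raised to the lowest intensity well above background on its array where it lay below, which makes the ratio a bound. A gene whose bound was not past 1 had no ratio and counted as 0 in medians.

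Levels are given for members past 2-fold and for 22 members fixed by role, and for each related list the highest and lowest measured gene, of which 1 is not reported here. The members and lists were chosen with earlier results of these data known. Python 3.11.15, numpy 2.4.6, pandas 2.3.3, matplotlib 3.10.9, R 4.3.3 and limma 3.58.1 (normexp, offset 50) were used. The calculations were tested on simulated data, with changes well past 2-fold planted in bright genes. That simulation did not test changes near the 2-fold limit or bounds from dim probes. Precision is limited by the number of arrays. Of the alternatives, 12 were run (scaling, background, dim probes, several probes, outliers, streak and fold limit).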

Additional observations from a re-analysis of the deposited data

How the results depend on the processing

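With 1 array per condition, no alternative could leave out a replicate, and a ratio cannot be told apart from a difference between cultures. No paired analysis was possible because each condition had 1 array and no test was made. Adding probes by their design symbol was not run, since the scanner files hold no such column, and normexp used the median spot signal. The member median for cordyceps over control was 0.26, 0.48 with median scaling and 0.01 in the unscaled values, and for sunitinib -0.04, -0.37 and -1.12. The 4 members more than 2-fold higher with cordyceps became 2 without scaling, 1 with normexp and 11 at a 1.5-fold limit. The shares of all compared genes higher in these settings were 1.85%, 1.27% and 8.73%. The 4 became 6 with median scaling, against 4.96% of all compared genes. With no filter or floor on dim probes they became 5 (against 7.48%), as they did with the streak spots left out (against 2.62%). JUN passed 2-fold with cordyceps under 2 of the 11 alternatives that give ratios, and FOSB under 1. The 3 higher with sunitinib became 0 without scaling, 1 with normexp, 9 with no filter or floor on dim probes (FOS, EGR2, EGR3, NR4A1, DUSP2 and ARC among them, all below background) and 5 at 1.5-fold. Of all compared genes 1.06%, 2.14%, 27.8% and 15.4% were higher in these settings. With no filter 46 members were compared. The 7 lower became 24 without scaling, and 10 with median scaling, with no filter and at 1.5-fold. Over all compared genes the shares lower were 53.6%, 12.9%, 6.68% and 15.6% in the same order of settings. KLF2 turned to -0.03 with sunitinib in the unscaled values. The cause was not tested. Among all genes past 2-fold, the share higher was 51.8% for cordyceps and 49.7% for sunitinib, against 76.8% and 21.2% with median scaling, 24.7% and 1.94% unscaled, 63.6% and 80.6% with no filter, and 50.3% and 27.6% with normexp. Of 274 other values of 25 members for cordyceps, 232 stayed within the technical error of the reported value, 42 moved and 0 changed sign from past 2-fold, and of 271 for sunitinib the numbers were 208, 62 and 1. Counting ratios of any size, 12 of the 37 members changed sign under at least 1 alternative for cordyceps and 13 of 37 for sunitinib, 11 of these in the unscaled values.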

Other observations

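The ID proteins, inhibitors of basic helix-loop-helix factors that are induced by BMP signaling, stood apart among the other early factors on the sunitinib array. ID1, ID2 and ID3 were chosen after their values were seen, ID2 being the highest of that list. ID1 had log2 levels of 4.57 on the control array, 4.15 on the cordyceps array and 7.12 on the sunitinib array. ID2 had log2 levels of 2.10, 1.15 and 4.99, and ID3 of 1.23, 0.27 and 3.93. All 3 were thus highest with sunitinib, with log2 ratios of 2.55 (5.84-fold), 2.89 (7.40-fold) and 2.70 (6.51-fold), and lowest with cordyceps, with log2 ratios of -0.42, -0.95 and -0.96. Under the 11 alternatives that give ratios, the sunitinib values lay between 1.47 (ID1) and 3.04 (ID2). The order was opposite to that of FOSL1, JUN and MYC.

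Of the 27 compared genes of that list, 5 were more than 2-fold higher and 5 lower with sunitinib, against 6.41% and 6.49% of all compared genes, with a median log2 ratio of 0.00. BATF3, a basic leucine zipper factor of the AP-1 family, was the lowest measured at -2.18, with log2 levels of 1.01, 1.64 and -1.17. With cordyceps 0 were higher and 2 were lower, against 2.94% and 2.73% of all compared genes, with a median of 0.00. PPP1R15A (GADD34), which restores translation after stress, was the highest at 0.82, and GADD45G, a growth arrest protein that activates JNK and p38 signaling, the lowest at -1.76 (log2 levels of 0.18 on the control array and -1.58 on the cordyceps array).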
